A study of Homo sapiens with 12 samples.

Results

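Mitochondrial ribosomal protein genes encode the proteins of the mitoribosome, and their members were taken here as every gene symbol that starts with MRPL or MRPS and ends in its number, with or without a letter from A to C. Of the 55765 symbols listed in the count files 76 followed this rule, 47 with MRPL names (large subunit) and 29 with MRPS names (small subunit). The rule itself used symbols only, but the members were chosen with earlier results of these data known. RNA was sequenced from Hs 578T, a triple-negative breast cancer (TNBC) cell line, in 4 groups of 3 libraries each. The groups were cells expressing GFP with Cyss, cells expressing GFP without Cyss, cells over-expressing NRF2 with Cyss and cells over-expressing NRF2 without Cyss. Cyss is cystine, the oxidized dimer of cysteine that TNBC cells import from the medium, and the control medium held 0.8 mM of it. Per the study's methods, deprivation lasted 8 h and both proteins were delivered with lentiviral particles, so the GFP cells are a transduced control and each line is a transduced population. All 4 groups shared the same basal medium and serum. The labels do not say whether the libraries of a group came from separate cultures, so the spread between them may be technical.

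The mitoribosome translates the few mRNAs that are encoded in mitochondrial DNA, all of which make subunits of the respiratory chain and ATP synthase. Its rRNAs come from the mitochondrial genome, whereas its proteins are encoded in the nucleus, made in the cytosol and imported. Some of these proteins have counterparts in the bacterial ribosome and carry the bacterial number, and most of the others were acquired in the course of mitochondrial evolution. NRF2, encoded by NFE2L2, is the transcription factor that activates antioxidant genes, and it must not be confused with NRF1 or with the ETS-family factor GABP (also known as nuclear respiratory factor 2), which are known regulators of nuclear genes for mitochondrial proteins.

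The promoters of the members shared sequence features. RefSeq promoter sequences (GRCh38.p14, 250 bases before to 50 bases after the annotated start, 300 bases in all) were at hand for 67 of the 76 members. The following motifs were searched on both strands, as exact letters: GCGCNTGCG (NRF1), CCGGAAG (ETS family), AAGATGGC (YY1), TGACNNNGC (the antioxidant response element, ARE, to which NRF2 binds) and TGATGCAA (ATF4 with C/EBP). No match of any of these motifs can be read as a binding site, nor its absence as a lack of binding. The ETS motif was found in 41.8% of the members' promoters (28 of 67) and in 13.6% of all 15218 promoters of genes listed in the files. The YY1 motif was found in 29.9% of the members' promoters (20 of 67) and in 3.86% of all promoters, and at least 1 of the ETS and YY1 motifs was found in 59.7% against 16.6%. Of the 21 YY1 matches in the members, 15 lay after the start, as did 61.0% of such matches over all promoters. The other motifs were close to their frequency in all promoters, with 14.9% against 10.7% for NRF1, 11.9% against 14.3% for the ARE and 0 of 67 against 0.67% for ATF4. Large and small subunit genes were alike in the ETS motif (16 of 40 and 12 of 27 promoters) and the YY1 motif (12 of 40 and 8 of 27). The ARE was found in 3 of 40 large and 5 of 27 small subunit promoters. For the NRF1 motif it was 7 of 40 and 3 of 27, and these differences were not tested.

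The promoters of 4 members are shown because their genes stood out in the comparisons described later: MRPL51 and MRPS33 among the members that were lower in NRF2 cells without Cyss, and MRPS30 and MRPS24 among the few that were higher. Each sequence runs 5′ to 3′ on the strand of the gene, from 170 bases before to 30 bases after the annotated start (200 bases), and capitals mark the motif matches. MRPL51 (chr12:6493233-6493432, minus strand) held an ETS match at positions -119 and -104 from the start and a YY1 match at position 22. MRPS33 (chr7:141014923-141015122, minus strand) held an NRF1 match at position -154 and an ETS match at position 1. MRPS30 (chr5:44808777-44808976, plus strand) and MRPS24 (chr7:43869488-43869687, minus strand) held a YY1 match only, at positions 14 and 20.
MRPL51: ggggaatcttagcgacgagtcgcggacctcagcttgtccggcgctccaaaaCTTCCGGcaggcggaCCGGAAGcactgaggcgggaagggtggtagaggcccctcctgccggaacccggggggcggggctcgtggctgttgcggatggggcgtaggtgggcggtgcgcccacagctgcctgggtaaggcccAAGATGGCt
MRPS33: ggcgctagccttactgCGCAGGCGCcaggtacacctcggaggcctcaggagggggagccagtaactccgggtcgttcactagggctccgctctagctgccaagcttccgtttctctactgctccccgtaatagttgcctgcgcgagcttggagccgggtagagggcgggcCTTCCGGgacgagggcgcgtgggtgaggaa
MRPS30: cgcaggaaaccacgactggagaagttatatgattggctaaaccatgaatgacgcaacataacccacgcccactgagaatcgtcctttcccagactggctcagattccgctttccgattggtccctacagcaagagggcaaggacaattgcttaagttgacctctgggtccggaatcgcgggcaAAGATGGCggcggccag
MRPS24: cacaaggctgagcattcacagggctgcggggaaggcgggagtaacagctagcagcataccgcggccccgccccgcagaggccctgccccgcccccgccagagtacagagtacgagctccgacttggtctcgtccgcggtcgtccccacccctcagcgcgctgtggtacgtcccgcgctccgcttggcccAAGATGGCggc
Thus the YY1 motif was present in genes that moved in opposite directions. Among members with a promoter sequence, 35 were lower in NRF2 cells than in GFP cells without Cyss and 31 tested members were not. The YY1 motif was found in 25.7% and 35.5% of these, respectively, and the ETS motif in 45.7% and 35.5%. The ARE was found in 14.3% and 9.68% (5 and 3 promoters) and the NRF1 motif in 17.1% and 9.68% (6 and 3). These are descriptions without a test.

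Between 27250993 and 44596870 reads of each library were assigned to genes. The labels call the cells epithelial. Of 5 epithelial markers EPCAM (0 to 1 reads per library), CDH1 (3 to 12) and KRT19 (0 to 3) were at or near 0, while KRT8 (124 to 236) was low and KRT18 (634 to 1423) was clearly present. KRT18 was higher without Cyss in GFP (log2FC = 0.39) and NRF2 cells (log2FC = 0.66) and lower in NRF2 than in GFP cells with Cyss (log2FC = -0.31). The 5 mesenchymal markers (VIM, CDH2, FN1, ZEB1 and SPARC) were abundant, with at least 117983 reads for VIM, 683361 for FN1 and 5881 for ZEB1. On deprivation in NRF2 cells 3 were higher and 1 lower (log2FC from -0.12 to 0.37), against 15.2 and 13.8% of all genes. In NRF2 against GFP cells without Cyss 1 was higher (log2FC = 0.29) and 1 lower (log2FC = -0.25), against 14.0 and 14.7%. In GFP cells on deprivation and between cell types with Cyss 0 passed. Of the receptors that define TNBC, ESR1 (7 to 15 reads) and PGR (0 to 21) were low and ERBB2 was at 1056 to 1801, and the leukocyte and endothelial markers that were found summed to 32.6 to 61.7 normalized counts. Among the low markers, PTPRC (log2FC = -0.78) and CDH1 (log2FC = -1.27) were lower in NRF2 cells than in GFP cells in the medium without Cyss, while PGR was higher in NRF2 cells without Cyss (log2FC = 3.85) and with Cyss (log2FC = 2.1). The part of these markers in the results was not tested. NFE2L2 was higher in every NRF2 library (6598 to 8396 normalized counts) than in any GFP library (3647 to 4655), and reads of the endogenous and the delivered gene cannot be told apart. Of 10 ATF4 targets 9 were higher without Cyss in either cell type (3.11% of all genes in GFP and 15.2% in NRF2 cells). Of 10 NRF2 targets 9 were higher in NRF2 than in GFP cells under either medium (4.15% of all genes with and 14.0% without Cyss). The library of replicate 1 of NRF2 cells without Cyss stood apart, with 7.84% of its reads outside genes against 5.82 to 6.69% in the other 11. The number of lower members and the main counts in the gene lists described below are given with and without it. Other counts that involve it are given with it only, unless stated. Without it, 9 of 10 ATF4 targets were still higher on deprivation in NRF2 cells (15.6% of all genes). Likewise 9 of 10 NRF2 targets were still higher than in GFP cells without Cyss (12.8%). For the gene lists other than the members, giving both was chosen after seeing the data.

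Together, the members took 0.169 to 0.209% (MRPL) and 0.105 to 0.125% (MRPS) of the reads on genes. The share of MRPL genes was 0.204 ± 0.0036% (SD, n = 3) in GFP cells with Cyss, 0.204 ± 0.0043% in GFP cells without Cyss, 0.200 ± 0.0017% in NRF2 cells with Cyss and 0.180 ± 0.0094% in NRF2 cells without Cyss. In the last group the 3 libraries were at 0.169, 0.182 and 0.188%, and the other 9 libraries were between 0.198 and 0.209%, so that the groups did not overlap. The share of MRPS genes was 0.121 ± 0.0020, 0.123 ± 0.0016, 0.118 ± 0.0018 and 0.11 ± 0.0042% in the same order of groups, and here too the NRF2 libraries without Cyss (0.105, 0.11 and 0.114%) lay below all the others (0.117 to 0.125%). The lowest library in both subunits was replicate 1, the one that stood apart. In bulk RNA, fewer cells of a kind and less RNA per cell cannot be told apart, and all values are relative to the other genes of a library.

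**Figure D1:**
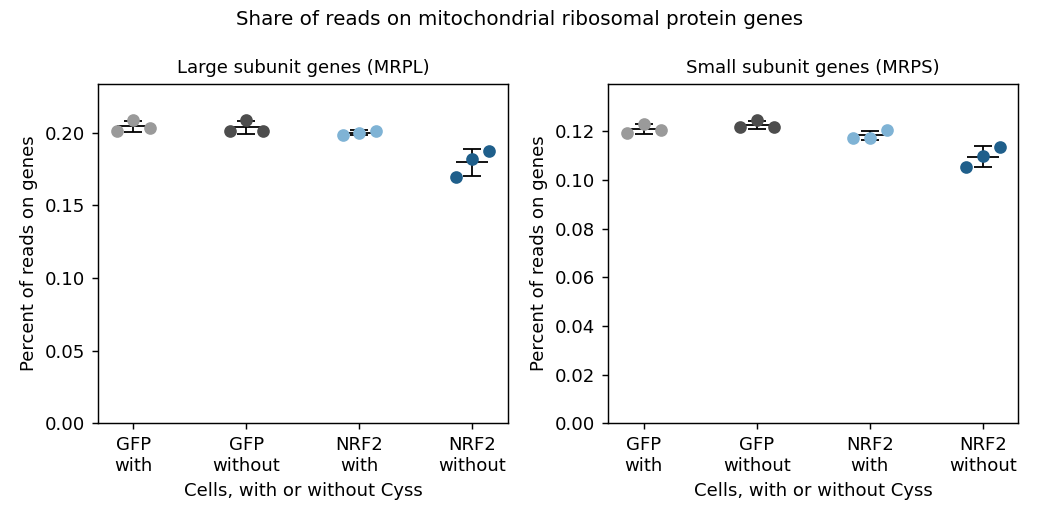
Share of reads on mitochondrial ribosomal protein genes in the 12 libraries, as a percentage of reads on genes (vertical axis, from 0), for large (left) and small (right) subunit genes. Points are libraries, ordered by replicate number, and bars are the mean ± SD of 3. The 3 libraries of NRF2 cells without Cyss lie below the other 9 in both panels.

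Levels of different genes were compared per length, as TMM-scaled CPM per kb of the canonical transcript in GFP cells with Cyss (mean ± SD, n = 3). The median level was 31.4 over the 47 MRPL genes and 27.7 over the 29 MRPS genes. In the large subunit the highest levels were those of MRPL3 (92.6 ± 2.35) and MRPL20 (91.6 ± 4.20), which differed by less than their spread, followed by MRPL51 (85.1 ± 2.23). MRPL3 and MRPL20 have bacterial counterparts, and MRPL51 does not. In the small subunit MRPS15 (64.7 ± 1.31), the counterpart of bacterial S15, was above MRPS21 (58.4 ± 1.84) and MRPS34 (55.1 ± 4.30), and the last of these were within their spread of each other. The lowest small subunit genes were MRPS18C (7.28 ± 0.520), MRPS33 (6.61 ± 0.287) and MRPS23 (6.44 ± 0.134). Of the neighbours in this order, 17 of 46 pairs in the large and 11 of 28 in the small subunit were apart by more than the sum of their SDs. The order also depended on the length used. Per kb of all annotated exon bases of a gene, the medians were 15.2 (MRPL) and 9.59 (MRPS). There MRPL3 ranked 3, MRPL20 12 and MRPL51 4 in the large subunit. In the small subunit MRPS15 ranked 9, MRPS21 2, MRPS34 1, MRPS18C 29, MRPS33 22 and MRPS23 21.

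Per kb of canonical transcript, the lowest large subunit genes were MRPL42 (4.09 ± 0.504), MRPL38 (2.59 ± 0.122) and MRPL30. MRPL30 had 2 to 9 reads per library and a level of 0.031 ± 0.014. MRPL42 has a canonical transcript of 15557 bases, and its normalized count (mean 2138 ± 264) exceeded that of most members. MRPL38 shares 1373 of its 3342 exon bases, and MRPL30 564 of 4760, with protein-coding genes on the same strand that are not listed in the files. MRPL12, the counterpart of the bacterial stalk protein L7/L12, shares 701 of 1009 bases in this way and had a level of 13.0 ± 1.37. The part of shared bases in these low values was not tested. MRPL30 did not pass the filter on low counts (averaging 10 or more normalized counts in 1 of the groups) in any comparison, and the other 75 members passed in all of them.

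**Figure D2:**
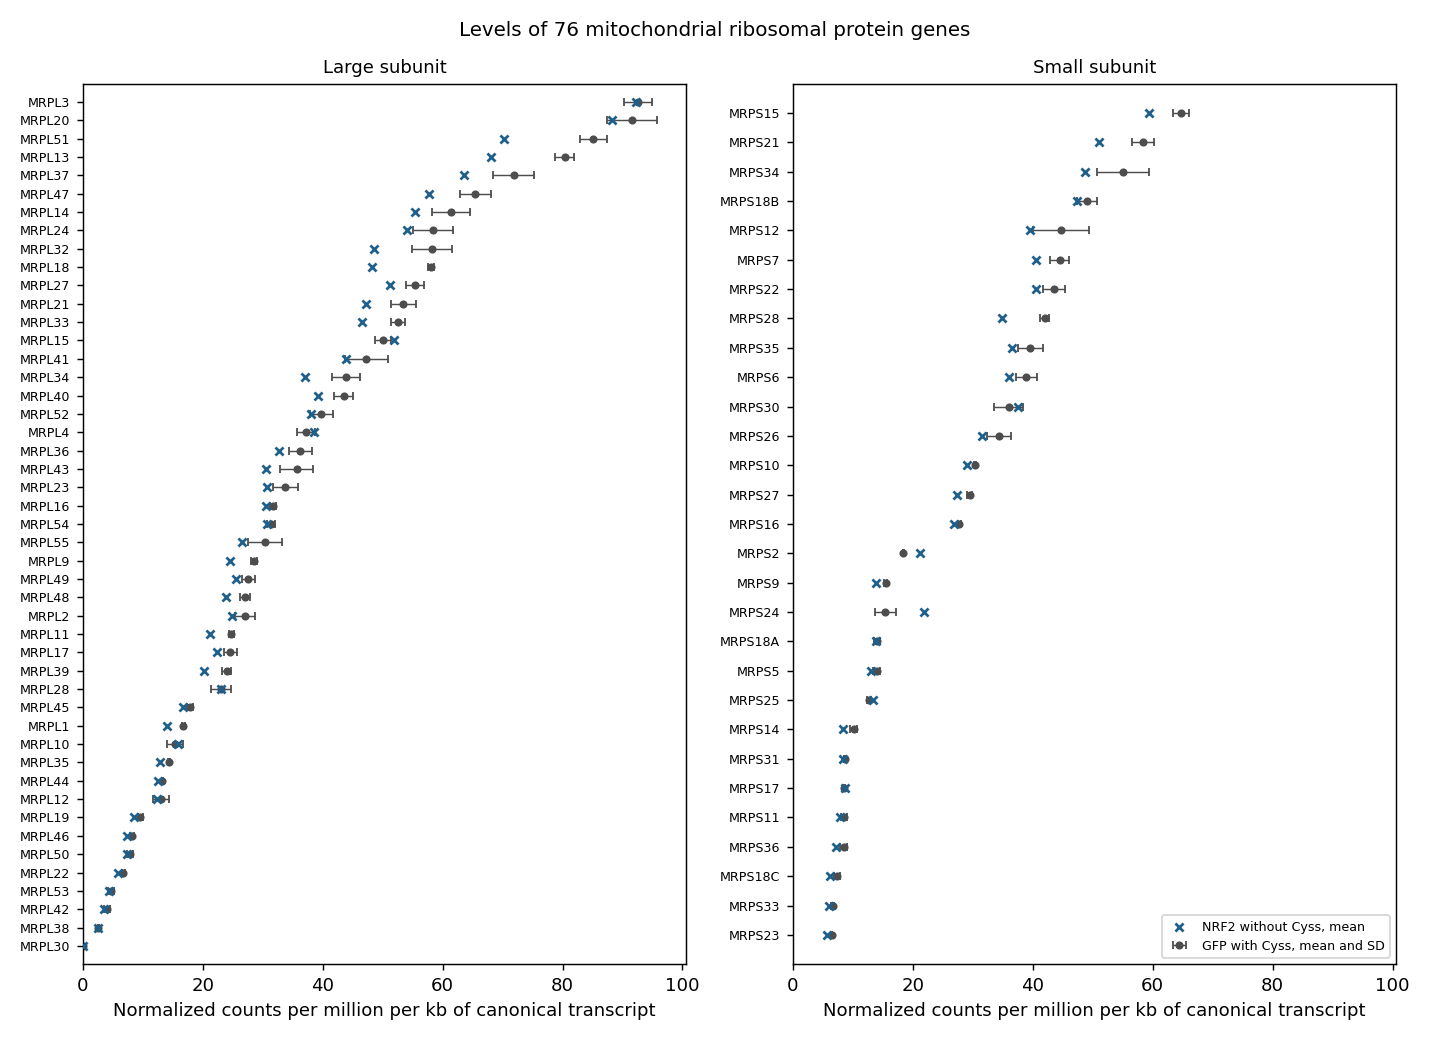
Levels of the 76 members in TMM-scaled CPM per kb of canonical transcript (horizontal axis), ordered by their level in GFP cells with Cyss (grey points, mean ± SD of 3 libraries), with the mean in NRF2 cells without Cyss as blue crosses. Levels reach from 0.031 in MRPL30 to 92.6 in MRPL3, and most crosses lie to the left of their grey point, with MRPS24 and MRPS2 among those to the right.

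Across the 12 libraries, the ratio of the highest to the lowest library had a median of 1.27 in the tested large subunit genes and 1.25 in the small subunit genes. Of the 75 tested members, 61 had their lowest library among the NRF2 libraries without Cyss, of which 53 in replicate 1, 7 in replicate 2 and 1 in replicate 3. The highest library was a GFP library without Cyss in 34 members and a GFP library with Cyss in 28. Neither this ratio nor how often each library was lowest or highest was computed over all genes. These values therefore cannot be read as particular to the members.

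The response of GFP cells to Cyss deprivation addressed the effect of the medium without exogenous NRF2, and few members moved. At an adjusted p under 0.1, 1 of 75 members was higher (over all 17452 genes tested, 3.11% were higher) and 2 were lower (2.81% over all genes). None had in addition a log2FC above 0.32 in size, the study's limit for a differentially expressed gene (DEG), which 1.57% of all genes passed upwards and 0.533% downwards. The median log2FC was 0.012 in the large and 0.028 in the small subunit, against 0.0015 over all genes, and 27 of 75 members were below 0.

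MRPL32, whose precursor is known to be matured by the m-AAA protease, was at 1792, 1623 and 1627 normalized counts with Cyss and at 1465, 1529 and 1488 without (log2FC = -0.17, SE 0.051, adjusted p = 0.093). MRPL14, the counterpart of bacterial L14, was at 1874, 2077 and 1973 with Cyss and at 1702, 1853 and 1728 without (log2FC = -0.17, SE 0.050, adjusted p = 0.095). In both genes every library without Cyss was below every library with Cyss. MRPS18B, which is 1 of 3 human genes related to bacterial S18, went the other way, from 2215, 2362 and 2337 to 2573, 2579 and 2543 (log2FC = 0.15, SE 0.040, adjusted p = 0.060). Its relatives MRPS18A (log2FC = 0.14, adjusted p = 0.25) and MRPS18C (log2FC = -0.11, adjusted p = 0.44) did not pass the test. These 3 calls were weak: each was lost in 5 or 6 of 14 alternative settings. Leaving out any 1 library without Cyss ended the calls of MRPL14, MRPL32 and MRPS18B, as did leaving out replicate 3 with Cyss, and so did replicate 1 with Cyss for MRPL32 and MRPS18B and replicate 2 with Cyss for MRPL14.

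In NRF2 cells, Cyss deprivation was followed by lower levels of a larger number of members. Of the 75 members, 21 were lower (13.8% of all 17266 genes tested) and 3 were higher (15.2% of all genes), that is 28.0% of the members were lower. The median log2FC was -0.11 in the large and -0.066 in the small subunit against -0.012 over all genes, and 65 of 75 members were below 0. The lower members were 15 of 46 large and 6 of 29 small subunit genes, and the changes were small. The largest was that of MRPL34, which fell by 17.2%. No member was a DEG downwards (5.14% of all genes) and 1, MRPS24, was a DEG upwards (6.81%). Over all 75 members, 25 (33.3%) had every library without Cyss below every library with Cyss and 3 had them all above, against 18.5% and 19.3% of all genes tested. Among the 21 called lower, the groups overlapped in MRPL28 and MRPL48.

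The number of lower members rested on single libraries, and in part it fell along with that of all genes. It was 10 without replicate 1, 12 without replicate 2 and 9 without replicate 3 of NRF2 cells with Cyss, where 9.49, 9.11 and 8.56% of all genes were lower, respectively. It was 10 without replicate 2 (9.65% of all genes) and 33 without replicate 3 (16.1%) of NRF2 cells without Cyss. Without replicate 1 of this group, the library that stood apart, 10 members (13.3%) were lower against 13.7% of all genes, so that the members were then no more often lower than other genes. In that fit 57 of 75 members were below 0, with medians of -0.066 in the large and -0.014 in the small subunit.

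MRPL34, the counterpart of bacterial L34, had the largest fall of the large subunit, from 1141, 1133 and 1174 with Cyss to 953, 911 and 993 without (log2FC = -0.27, SE 0.055, adjusted p = 0.0025). MRPL32 was at 1699, 1620.5 and 1697 and at 1261, 1525 and 1417 (log2FC = -0.26, SE 0.063, adjusted p = 0.0094). The libraries with and without Cyss were separate in both genes. MRPL55, which has no bacterial counterpart, was at 836, 781 and 738 and at 667, 607 and 702 (log2FC = -0.25, SE 0.071, adjusted p = 0.020), and this call was lost without replicate 1 of NRF2 cells with Cyss or replicate 2 of those without. In the small subunit MRPS14, the counterpart of S14 in the head of the bacterial subunit, fell from 739, 697 and 703 to 576, 589 and 633 (log2FC = -0.25, SE 0.064, adjusted p = 0.011). MRPS12, the counterpart of S12 in the decoding centre, was at 1499, 1425 and 1470.3 and at 1146, 1264 and 1406 (log2FC = -0.20, SE 0.066, adjusted p = 0.040). MRPS21 was at 2228, 2078 and 2104 and at 1683, 1829 and 2071 (log2FC = -0.20, SE 0.066, adjusted p = 0.042). For MRPS12 and MRPS21 the library nearest to the other group was replicate 3 without Cyss, and either call was lost when replicate 1 or 3 with Cyss or replicate 1 or 2 without Cyss was left out. Under all 14 alternative settings MRPL14, MRPL32, MRPL34, MRPL41 and MRPS14 kept their call.

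The 3 members that rose all carry small subunit names. MRPS24 rose from 409.5, 360.2 and 391 to 492, 483 and 499 (log2FC = 0.35, SE 0.072, adjusted p = 0.0030). It is the counterpart of bacterial S3 despite its number, and it shares 606 of its 2607 exon bases with the readthrough gene URGCP-MRPS24 on the same strand, for which 0 to 2 reads per library were counted. The upstream gene URGCP had a log2FC of 0.14 (adjusted p = 0.067) in the same comparison. MRPS30, whose protein is now placed in the large subunit (mL65), rose from 1765, 1769 and 1839 to 2133, 2081 and 2024 (log2FC = 0.21, SE 0.048, adjusted p = 0.0050), and it shares no exon base with another gene. MRPS2 was at 881, 900.0 and 943 with Cyss and at 1002, 1013 and 1099.8 without (log2FC = 0.19, SE 0.059, adjusted p = 0.031), with separate libraries, and its call was lost without replicate 1 or 2 of NRF2 cells with Cyss and when libraries were scaled by their size only. MRPS24 and MRPS30 kept theirs in all 14 settings.

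**Figure D3:**
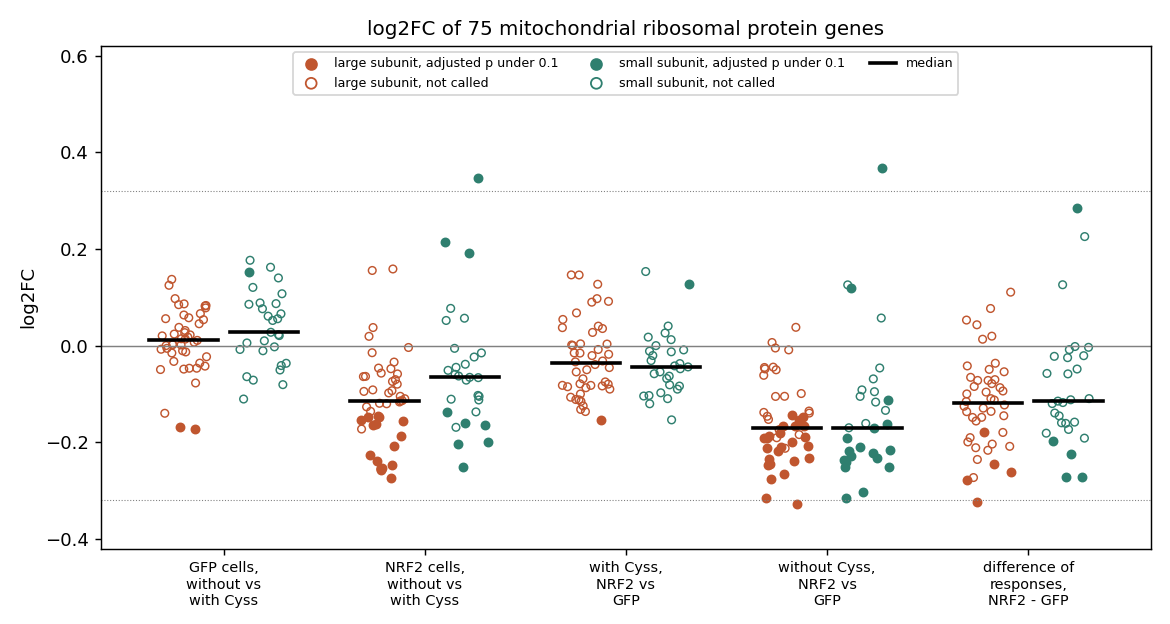
log2FC (vertical axis) of the 75 tested members in the 4 comparisons and in the difference of the responses, for large (orange) and small (green) subunit genes. Filled points passed an adjusted p under 0.1, black bars are medians, and dotted lines mark the study's limit of 0.32. The points of NRF2 against GFP cells without Cyss lie lowest, with medians of -0.17 in both subunits.

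With Cyss, NRF2 and GFP cells differed little in the members. Only MRPS25 was higher (4.15% of all 17449 genes tested) and only MRPL51 was lower (2.28%) in NRF2 cells, and no member was a DEG (1.36% of all genes upwards and 0.201% downwards). The medians were -0.036 in the large and -0.044 in the small subunit, and 52 of 75 members were below 0. MRPL51 was at 2493, 2618 and 2598 in GFP cells and at 2134, 2373 and 2426 in NRF2 cells (log2FC = -0.15, SE 0.048, adjusted p = 0.092). MRPS25, a small subunit protein without bacterial counterpart, was at 1989.9, 1903 and 1989.8 and at 2144, 2160.3 and 2120.5 (log2FC = 0.13, SE 0.040, adjusted p = 0.095). It shares 7157 of its 18309 exon bases with NR2C2 on the other strand, and strand was not used in counting, while NR2C2 had a log2FC of 0.10 (adjusted p = 0.29). Both calls were lost when any 1 NRF2 library was left out, or GFP replicate 2 or 3.

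Without Cyss, most members were lower in NRF2 than in GFP cells. Of the 75 members 41 (54.7%) were lower, against 14.7% of all 17297 genes tested, and 2 were higher (14.0% of all genes). Both subunits took part, with 25 of 46 large and 16 of 29 small subunit genes lower and a median log2FC of -0.17 in each, against -0.016 over all genes, and 69 members were below 0. The differences were small: only MRPL1 was a DEG downwards (4.09% of all genes) and only MRPS24 was a DEG upwards (5.98%). Over all 75 members, 44 (58.7%) had every NRF2 library below every GFP library and 3 had them all above, against 18.9% and 19.4% of all genes tested. Among the 41 called lower, the groups overlapped in MRPL20 and MRPS21. Members with a bacterial number (up to 36 in MRPL and up to 21 in MRPS) and the others were alike, with 23 of 43 and 18 of 32 lower and medians of -0.17 and -0.19. The members that share no exon base with another annotated gene gave 22 of 35 lower and those that do 19 of 40. This comparison and that of the media in NRF2 cells share the NRF2 libraries without Cyss, so they are not independent.

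The number of lower members was 17 (22.7%) without replicate 2 of GFP cells without Cyss, where 6.38% of all genes were lower. It was 23 (30.7%) without replicate 1 of NRF2 cells without Cyss, the library that stood apart, against 10.9% of all genes. It was 28 to 52 when any other library was left out, against 8.25 to 15.9% of all genes. Without that NRF2 replicate the medians were -0.11 in the large and -0.12 in the small subunit. In all 14 alternative settings 17 of the 41 kept their call: MRPL1, MRPL13, MRPL18, MRPL21, MRPL36, MRPL39, MRPL40 and MRPL51 in the large subunit, and MRPS7, MRPS9, MRPS11, MRPS14, MRPS18B, MRPS23, MRPS28, MRPS33 and MRPS34 in the small subunit.

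MRPL1, the counterpart of L1 in the mobile stalk beside the exit site for tRNA, was at 727, 697 and 652 normalized counts in GFP cells and at 551, 547 and 572 in NRF2 cells (log2FC = -0.33, SE 0.064, adjusted p = 0.0049). It fell by 20.3%, the largest change downwards of all members in this comparison. MRPL51 was at 2629, 2698 and 2512 and at 1925, 2145 and 2289.5 (log2FC = -0.31, SE 0.062, adjusted p = 0.0050), and it shares 383 of its 1388 exon bases with NCAPD2 on the other strand, which had a log2FC of -0.15 (adjusted p = 0.028). MRPL13, the counterpart of bacterial L13, was at 3462, 3445 and 3484 in GFP cells, a narrow range, and at 2698, 2894 and 3064 in NRF2 cells (log2FC = -0.28, SE 0.052, adjusted p = 0.0039). All NRF2 libraries of these 3 genes were below all GFP libraries.

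In the small subunit the largest fall was that of MRPS33, a protein without bacterial counterpart, from 1090.5, 1069 and 986 in GFP to 815, 880.4 and 855 in NRF2 cells (log2FC = -0.32, SE 0.060, adjusted p = 0.0042). MRPS14 was at 747, 763 and 689 and at 576, 589 and 633 (log2FC = -0.30, SE 0.066, adjusted p = 0.0081). It overlaps CACYBP on the other strand by 387 of 2594 bases, and CACYBP was lower as well (log2FC = -0.23, adjusted p = 0.0055). MRPS23 was at 1299, 1282 and 1265 and at 1015, 1113 and 1129 (log2FC = -0.25, SE 0.056, adjusted p = 0.0093), and neither MRPS23 nor MRPS33 shares an exon base with another annotated gene. MRPS33 is listed with 3 symbols that look like its pseudogenes, so that reads could be split among copies.

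MRPS24 again went against the others, from 347, 441 and 347 in GFP to 492, 483 and 499 in NRF2 cells (log2FC = 0.37, SE 0.092, adjusted p = 0.016), and the highest GFP library (replicate 2) was still below the lowest NRF2 library. URGCP was also higher here (log2FC = 0.19, adjusted p = 0.040). MRPS30 was at 1871, 1880.3 and 1942 and at 2133, 2081 and 2024 (log2FC = 0.12, SE 0.048, adjusted p = 0.098), and this call was lost in 8 of 14 settings, leaving out any 1 library except NRF2 replicate 3 among them.

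**Figure D4:**
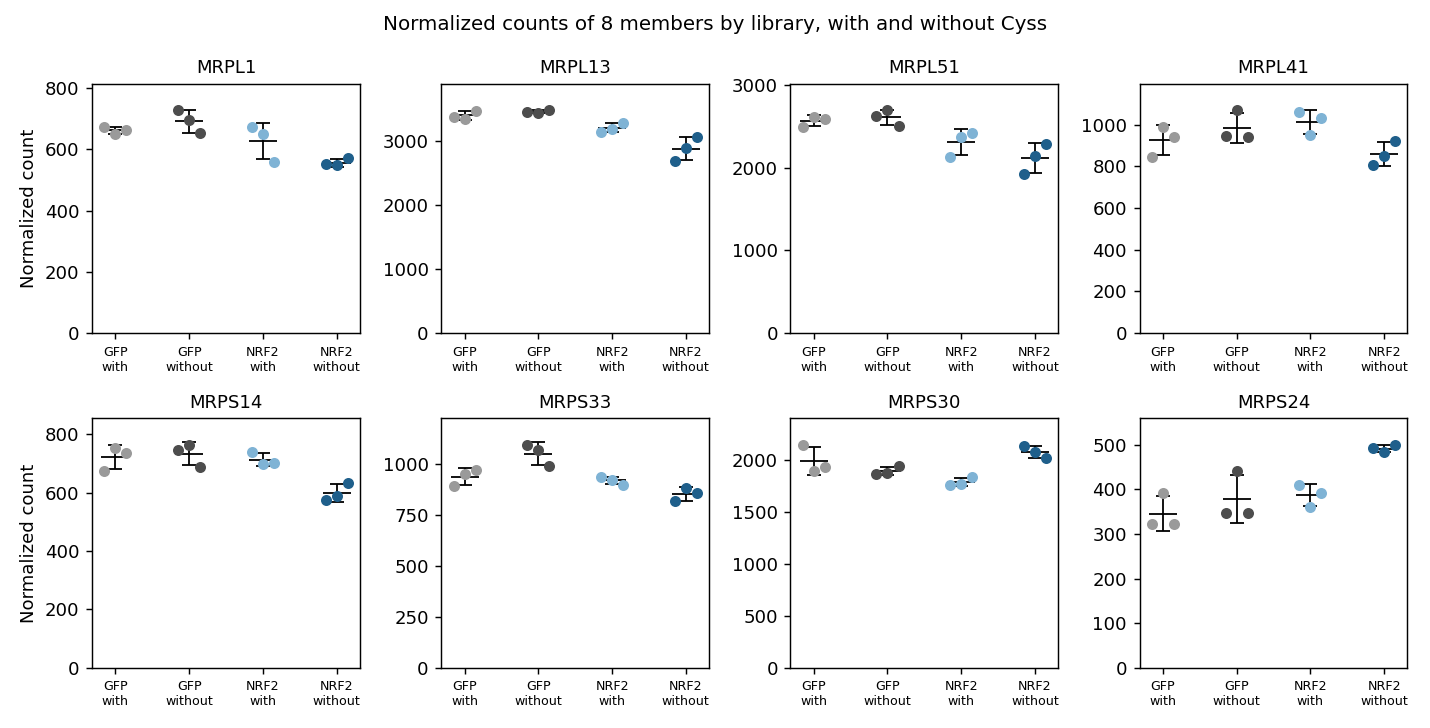
Normalized counts (vertical axes, from 0) of 8 members in the 12 libraries, by cell type and by medium with or without Cyss. Points are libraries, and bars are the mean ± SD of 3. MRPL1, MRPL13, MRPL51, MRPS14 and MRPS33 are lowest in NRF2 cells without Cyss (MRPL1 at 547 to 572), whereas MRPS24 is highest there (483 to 499).

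The other named members differed less. MRPL18, the counterpart of bacterial L18, was lower in NRF2 cells without Cyss than with Cyss (log2FC = -0.19, adjusted p = 0.038) and than in GFP cells without Cyss (log2FC = -0.23, adjusted p = 0.017), at 1441, 1606 and 1671 against 1787, 1868 and 1709 and 1847, 1875 and 1774. MRPS36, which has since been assigned to the 2-oxoglutarate dehydrogenase complex, was at 377, 395 and 352 in GFP and at 268, 345 and 338 in NRF2 cells without Cyss (log2FC = -0.25, SE 0.099, adjusted p = 0.091), and this call was lost without any 1 of NRF2 replicates 1 or 2 or GFP replicates 1 or 2. MRPL12 did not pass the test in any of the 4 comparisons, with log2FC from -0.11 to 0.035. MRPL3, the member of the highest level per kb of canonical transcript, did not either, with log2FC from -0.045 to 0.037. Within the S18 family, without Cyss MRPS18B was lower in NRF2 cells (log2FC = -0.22, adjusted p = 0.011), while MRPS18A had a log2FC of -0.17 (adjusted p = 0.16) and MRPS18C of -0.16 (adjusted p = 0.20). The protein of MRPS18A, like that of MRPS30, is now placed in the large subunit.

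MRPS6 shares 265 exon bases with SLC5A3, the sodium and myo-inositol cotransporter, on the same strand of chromosome 21, so that reads there could be assigned to either gene or to none. MRPS6 did not pass the test in any comparison, with log2FC from -0.10 to -0.011. In contrast, SLC5A3 was lower without Cyss in GFP cells (log2FC = -0.35, adjusted p = 0.0013) and higher in NRF2 cells than in GFP cells without Cyss (log2FC = 0.46, adjusted p = 0.0016). In normalized counts MRPS6 was between 1092 and 1274 in all 12 libraries.

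Whether Cyss deprivation acted differently by cell type was tested with an interaction term over the 12 libraries. It was negative in 66 of 75 members, with medians of -0.12 in the large and -0.11 in the small subunit against -0.013 over all genes. By gene, 9 members had a lower response in NRF2 cells (6.13% of all 17674 genes tested) and 1 a higher response (8.97%), that is 9 of 75 against 1084 of 17674 genes were lower. The largest was that of MRPL41, a protein without bacterial counterpart, which was at 847, 987 and 942 with and 945, 1069 and 942 without Cyss in GFP cells, and at 1060.3, 949.7 and 1031 and 808, 849 and 919.8 in NRF2 cells (difference of log2FC = -0.32, SE 0.099, adjusted p = 0.047). MRPL28 followed with -0.28 (SE 0.084, adjusted p = 0.045). MRPS33 was at 891, 947 and 970.4 with and 1090.5, 1069 and 986 without Cyss in GFP cells, and at 934, 921 and 897 and 815, 880.4 and 855 in NRF2 cells (difference -0.27, SE 0.077, adjusted p = 0.035). In GFP cells its libraries without Cyss were all above those with Cyss, and in NRF2 cells all below.

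MRPS30 was the member with the opposite difference, at 2145, 1898 and 1935 with and 1871, 1880.3 and 1942 without Cyss in GFP cells, against 1765, 1769 and 1839 and 2133, 2081 and 2024 in NRF2 cells (difference 0.29, SE 0.069, adjusted p = 0.015). Of the 10 calls, those of MRPS30 and MRPS33 held in all 19 alternative settings. The number of lower differences was 1 (1.33%) without replicate 1 of GFP cells with Cyss or replicate 2 of GFP cells without Cyss, against 3.45 and 2.71% of all genes. It was 3 (4%) without NRF2 with Cyss replicate 1 or NRF2 without Cyss replicate 2, against 4.55 and 4.11%, and 4 (5.33%) without NRF2 with Cyss replicate 3, against 3.33%. It was 5 (6.67%) without replicate 1 of NRF2 cells without Cyss, the library that stood apart, or replicate 1 of GFP cells without Cyss, against 5.52 and 3.77%. It was 14 (18.7%) without GFP with Cyss replicate 2 and 21 (28%) without NRF2 without Cyss replicate 3, against 6.76 and 8.83%.

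**Figure D5:**
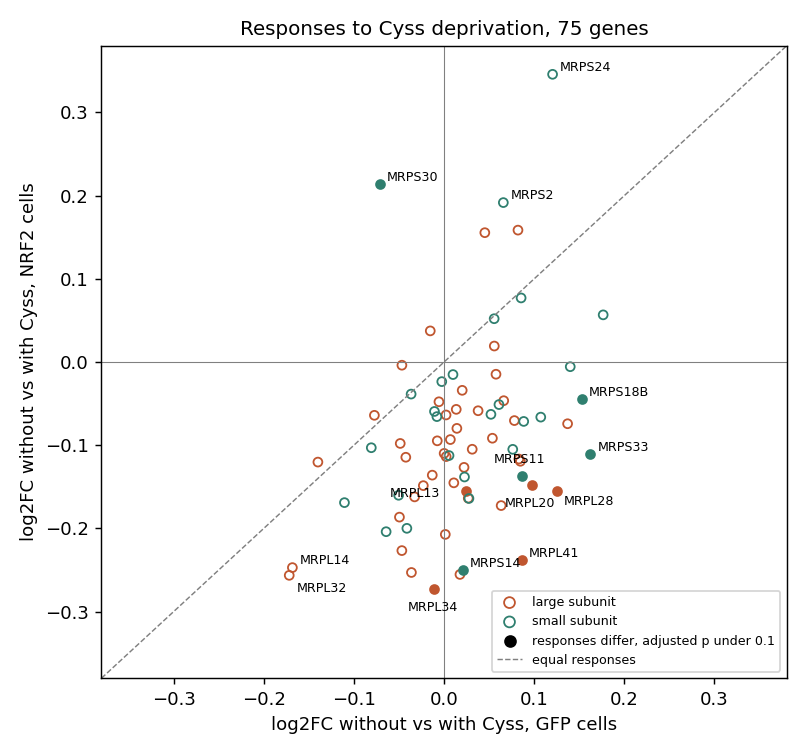
log2FC without against with Cyss of the 75 tested members in GFP cells (horizontal axis) and in NRF2 cells (vertical axis), for large (orange) and small (green) subunit genes. Filled points have responses that differ at an adjusted p under 0.1, and the dashed line marks equal responses. Of the 75 members 40 lie above 0 in GFP and below 0 in NRF2 cells, and MRPS30 lies farthest to the upper left of the line among the filled points.

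Across the members the responses of GFP and NRF2 cells, which share no library, had a Pearson r of 0.35 and a Spearman rho of 0.32 (n = 75 genes, which are measured in the same libraries and are not independent), against 0.32 and 0.21 over the 17048 genes tested in both. Both responses were below 0 in 25 members and above 0 in 8. The log2FC of NRF2 against GFP cells without Cyss had an r of -0.016 and a rho of 0.14 with the log10 normalized count. With the log10 length of the canonical transcript it had an r of 0.10 and a rho of 0.22 (n = 75). For the response of NRF2 cells to deprivation, r was 0.031 and rho 0.074 with the count. With the length they were 0.16 and 0.35. By rank, members with shorter transcripts thus tended to have the lower log2FC. These comparisons include the library that stood apart, and whether other genes show the same was not tested.

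The remaining proteins of the mitoribosome, which go under other symbols, were also mostly lower in NRF2 cells without Cyss. Of 7 such genes (AURKAIP1, CHCHD1, DAP3, GADD45GIP1, ICT1, MRP63 and PTCD3), 6 were lower and 0 higher in NRF2 cells than in GFP cells without Cyss, DAP3 being the exception. That is 85.7% lower against 14.7% of all genes, and the median log2FC was -0.17. Without replicate 1 of NRF2 cells without Cyss 3 of 7 were lower (42.9% against 10.9% of all genes), with a median of -0.14. CHCHD1 had the largest difference of these (log2FC = -0.40, SE 0.068, adjusted p = 0.0023). In NRF2 cells CHCHD1 was also lower without Cyss (log2FC = -0.31, adjusted p = 0.0050), as were AURKAIP1 and GADD45GIP1. That is 3 of 7 lower (42.9% against 13.8% of all genes) and 0 higher. None of the 7 passed the test in GFP cells or between cell types with Cyss.

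Of 16 mitochondrial translation factors, 4 were lower and 0 higher in NRF2 cells than in GFP cells without Cyss, with a median of -0.091, that is 25% lower against 14.7% of all genes. Without replicate 1 of NRF2 cells without Cyss, 2 were lower (12.5% against 10.9%). The 4 were TSFM, the elongation factor Ts (log2FC = -0.27, adjusted p = 0.016), SLIRP, which with LRPPRC stabilizes mitochondrial mRNAs (log2FC = -0.24, adjusted p = 0.028), the initiation factor MTIF3 (log2FC = -0.20) and the recycling factor MRRF (log2FC = -0.20). In NRF2 cells without against with Cyss, the initiation factor MTIF2, the elongation factors GFM1 and GUF1, and LRPPRC rose (log2FC from 0.15 to 0.21), and SLIRP fell, that is 25% higher and 6.25% lower against 15.2 and 13.8% of all genes. Without that library 4 were higher (25% against 15.6% of all genes) and 0 lower. In GFP cells 0 of 16 passed the test.

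Among 26 assembly factors of the mitoribosome, 5 were lower and 0 higher in NRF2 cells than in GFP cells without Cyss, and the median was -0.058. The share lower was 19.2%, near the 14.7% of all genes. Without replicate 1 of NRF2 cells without Cyss 4 were lower (15.4% against 10.9% of all genes), with a median of -0.017. TFB1M, which dimethylates the small subunit rRNA, had a log2FC of -0.35 (adjusted p = 0.020) there and was the only one to pass in GFP cells, where it rose without Cyss (log2FC = 0.33, adjusted p = 0.040). METTL17 was lower in NRF2 cells without Cyss in both comparisons (log2FC = -0.30 against Cyss, adjusted p = 0.0026, and -0.34 against GFP, adjusted p = 0.0030). The other 3 were ERAL1, a chaperone of the small subunit rRNA, RBFA and RPUSD3. Without against with Cyss in NRF2 cells 2 rose, the GTPase GTPBP10 (log2FC = 0.34) and MRM1, and 3 fell (7.69 and 11.5% against 15.2 and 13.8% of all genes). Without that library 3 rose and 3 fell (11.5% each, against 15.6 and 13.7% of all genes).

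The mRNAs that the mitoribosome translates differed in direction from most members. All 13 mitochondrially encoded mRNAs rose without Cyss in NRF2 cells, 6 of them as DEGs, with a median log2FC of 0.28 and the largest value in MT-CYB, the cytochrome b of complex III (log2FC = 0.47, SE 0.059, adjusted p = 3.8e-05). Over all genes tested, 15.2% were higher and 6.81% were DEGs upwards. In NRF2 against GFP cells without Cyss 4 of 13 were higher (30.8% against 14.0% of all genes) and 0 lower, MT-ND1 with a log2FC of 0.39 (adjusted p = 0.0078). In GFP cells 0 of 13 passed the test, with a median of 0.065. Without replicate 1 of NRF2 cells without Cyss, all 13 were still higher on deprivation (15.6% of all genes), with a median of 0.20 and 1 DEG. Against GFP cells 3 of 13 were then higher (23.1% against 12.8% of all genes). The 13 mRNAs took 1.99 to 2.27% of the reads in the NRF2 libraries without Cyss and 1.86 to 1.96% in those with Cyss, and replicate 1 without Cyss was the highest. Of the mitochondrial rRNAs MT-RNR2, tested with the rRNA genes kept, was higher without Cyss in NRF2 cells (log2FC = 0.21, adjusted p = 0.0051), and MT-RNR1 did not pass (log2FC = 0.035). The library kit selects polyadenylated RNA, so that the rRNA values depend on what passed the selection.

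Of 12 transcription factors and coactivators of mitochondrial biogenesis 11 were tested. In NRF2 cells without against with Cyss 5 were higher (45.5% against 15.2% of all genes) and 0 lower. MYC had a log2FC of 0.69 (adjusted p = 6.5e-08) and GABPB1, a subunit of GABP, of 0.21 (adjusted p = 0.0084), while TFAM, TFB2M and PPRC1 were between 0.11 and 0.17. In NRF2 against GFP cells without Cyss 4 were higher (36.4% against 14.0% of all genes) and 0 lower. The 4 were MYC (log2FC = 0.50, adjusted p = 0.00054), PPARGC1B, GABPA and PPRC1. Without replicate 1 of NRF2 cells without Cyss, 4 were higher in either comparison (36.4% each). Of all genes, 15.6% were then higher on deprivation and 12.8% in NRF2 against GFP cells. In GFP cells without Cyss MYC was higher (log2FC = 0.31) and YY1 lower (log2FC = -0.16, adjusted p = 0.095).

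The genes of the cytosolic ribosome were also mostly lower in NRF2 cells than in GFP cells without Cyss. Of 80 tested genes 58 were lower (72.5% against 14.7% of all genes) and 1 was higher, with a median log2FC of -0.20. Without replicate 1 of NRF2 cells without Cyss, which had the lowest share of reads on cytosolic ribosomal protein genes (1.39%), 34 of 80 were lower (42.5% against 10.9% of all genes) and the median was -0.13. Without against with Cyss in NRF2 cells 15 of 79 were lower (19% against 13.8% of all genes) and 2 higher (median -0.11). Without that library 11 were lower (13.9% against 13.7% of all genes, median -0.037). In GFP cells 0 of 80 passed the test (median 0.067). Lower values in NRF2 cells without Cyss were thus not particular to the mitochondrial ribosomal protein genes, and the difference between both gene groups was not tested. The cytosolic list was added with results of these data known.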

How the data were processed

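RNA of 12 libraries was sequenced single-end by the authors. Per the labels and the submitters' processing notes, reads were aligned to hg19 with TopHat2 2.1.0 and Bowtie and counted per gene with HTSeq 0.11.2, and the study's methods give unstranded counting over exons. The deposited values are raw counts per gene symbol, with 5 counter rows. The annotation used for counting is not given in the sources used here. The counter rows and 523 rRNA genes were left out, which left 55242 of 55765 symbols.

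Groups were compared with edgeR 4.0.16 (quasi-likelihood test, TMM scaling, R 4.3.3) on the 6 libraries of each comparison, and the difference of the responses on all 12. Genes averaging under 10 normalized counts in both groups were left out. p-values were adjusted over all genes tested (Benjamini-Hochberg), and adjusted p under 0.1 was called. The printed normalized counts use TMM factors of all 12 libraries. Unlike DESeq2 (here 1.42.0), which the authors used, edgeR was the main test. Lengths and shared exon bases come from GENCODE 44 on GRCh37. Replicates of every group differed by more than sampling noise.

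The members and the gene lists were chosen with earlier results of these data known. Members named with values were, per subunit and comparison, the 3 called ones of largest and of smallest log2FC, the 3 of smallest adjusted p in each direction of the interaction, the 3 of highest and lowest level, MRPS6, the MRPS18 genes, MRPS36, MRPL12, MRPL18 and the untested member. Genes sharing exon bases with them, and members named as exceptions (MRPL28, MRPL48, MRPL20), were chosen after their values were seen.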

Additional observations from a re-analysis of the deposited data

Results flagged for a closer look

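Cyss deprivation gave different responses by cell type at an adjusted p under 0.1 (edgeR interaction on 12 libraries) in 10 members. The response was lower in NRF2 cells, by the difference of the log2FC, for MRPL41 (-0.32), MRPL28 (-0.28), MRPS33 (-0.27), MRPS14 (-0.27), MRPL34 (-0.26), MRPL20 (-0.24), MRPS11 (-0.22), MRPS18B (-0.20) and MRPL13 (-0.18). It was higher for MRPS30 (0.29). Over all genes 6.13% were lower and 8.97% higher in this test.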

How the results depend on the processing

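No called difference of a member changed sign under any alternative. The median over all genes did, from 0.0015 in GFP cells on deprivation to -0.0051 with library size only and -0.0080 without a filter, and from -0.0039 in NRF2 against GFP cells with Cyss to 0.0040 with library size only. With all 12 libraries in one fit, GFP cells gave 0 higher and 1 lower member on deprivation (3.08 and 2.54% of all genes). NRF2 cells gave 5 higher (16.7%). NRF2 against GFP cells gave 0 and 0 with Cyss (2.53 and 0.86%) and 0 DEGs downwards without. At an adjusted p under 0.05, deprivation gave 0 and 0 in GFP cells and 13 lower in NRF2 cells. NRF2 against GFP cells gave 0 and 0 with Cyss and 1 higher and 27 lower without. At this limit 4 differences of the responses were lower. The shares of all genes at 0.05 are not given here, so these counts cannot be read as particular to the members. With scaling by library size only, NRF2 cells on deprivation gave 42 lower members, with 10.7% of all genes higher and 23.3% lower. There were 0 DEGs upwards and 1 downwards, and the small subunit median was -0.12. NRF2 against GFP cells gave 0 lower with Cyss (1.83% of all genes), and 1 higher (11.5%) and 4 DEGs downwards without. By this scaling 21 differences of the responses were lower (11.2% of all genes). The DESeq2 test gave 13 lower members in NRF2 cells on deprivation (9.76% of all genes). NRF2 against GFP cells gave 0 higher with Cyss (2.58%), and 1 higher (12.4%) and 0 DEGs downwards without Cyss. DESeq2 size factors gave 0 higher (4.02% of all genes) and 2 lower (2.38%) with Cyss and 0 DEGs downwards without. Without a filter on low counts, NRF2 against GFP cells gave 0 higher and 3 lower with Cyss (2.35 and 2.20% of all genes). Without Cyss it gave 1 higher (7.26%). With rRNA genes kept 0 were higher with Cyss (4.01%). The shares of all genes that were DEGs are not given for these alternatives. The cause of these shifts was not tested.

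Same-numbered deviations correlated above 0.1 in 2 of 18 pairs (median 0.017), and differently numbered ones in 1 of 36 (median -0.0054). Whether replicate numbers paired the libraries cannot be told from these correlations. With the replicate block, NRF2 cells gave 5 higher and 26 lower members on deprivation, where 17.5% of all genes were higher and 16.6% lower. NRF2 against GFP cells gave 0 higher and 2 lower with Cyss (4.07 and 2.14% of all genes). Without Cyss it gave 51 lower, where 17.9% of all genes were lower.

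Leaving out each library in turn gave, for GFP cells on deprivation, 0 to 2 higher and 0 to 1 lower members. Of all genes 1.68 to 2.96% were higher and 0.778 to 2.62% lower. The small subunit median was 0.012 to 0.063. For NRF2 cells it gave 2 to 5 higher (10.5 to 17.8% of all genes) and 9 to 33 lower (8.56 to 16.1%). It gave 0 to 1 DEGs upwards and 0 to 1 downwards. For NRF2 against GFP cells with Cyss it gave 0 to 2 higher (1.51 to 5.18% of all genes) and 0 to 5 lower (0.467 to 3.77%). Without Cyss it gave 1 to 2 higher (8.04 to 16.4%) and 17 to 52 lower (6.38 to 15.9%). There it gave 0 to 1 DEGs upwards and 0 to 5 downwards. For the difference of the responses it gave 1 to 2 higher (5.14 to 12% of all genes) and 1 to 21 lower (2.71 to 8.83%). MRPL30, at 2 to 9 reads per library, was fitted only in the setting without a filter on low counts.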
